A study of Mus musculus with 4 samples.

Results

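Among mesenchymal stromal cells sorted from the small intestinal lamina propria, 5745 cells were studied that carried RNA of an activation program made of chemokine and epidermal growth factor (EGF) receptor ligand genes. They were selected on their own measured counts: at least 500 genes, at least 1000 unique molecular identifiers (UMIs, each 1 counted RNA molecule), at most 10% mitochondrial UMIs, at least 1 UMI of Col1a2, a collagen I chain that marks fibroblasts, and at least 1 UMI of 3 or more of Ereg, Areg, Cxcl1, Cxcl2 and Tnfaip6. Cells with UMIs of more than 1 of Sox6, F3, Foxl1 and Bmp7, genes of PDGFRα-high fibroblasts, were left out. The 5745 cells were part of 16501 small intestinal cells with Col1a2 that passed the same filters, of 17097 small intestinal cells that passed them in all, and of 34983 barcodes in the 4 libraries of the series. They are called activated cells here. Reference cells were the 2417 small intestinal cells that passed the filters with at least 1 Col1a2 UMI and none of the 5 genes.

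The libraries came from untreated female C57BL6/Nrj mice, aged 8 to 10 weeks, for which the labels name no transgene, and there were 2 libraries from small intestine and 2 from colon. The labels give 2 independent experiments with 3 mice in each, so a library held cells of pooled mice, and they do not say which kit, 3′ or 5′, was used for which library. After removal of the muscle layer, cells were released by enzymatic digestion and sorted as live Itgb1+ cells negative for CD45, Ter119, CD31, BP3, EpCAM and L1CAM, which should remove blood, endothelial, epithelial and glial cells. Small intestine replicate 1 held 1834 cells that passed the filters and replicate 2 held 15263, and the libraries totalled 14341443 and 45640122 UMIs. The colon libraries held 2431 and 12688 such cells with 22076000 and 52269372 UMIs. The replicates therefore differed in size and depth, and values are given for each library. Few barcodes occurred in more than 1 library: 8 were shared by the libraries of replicate 1, 69 by those of replicate 2, and at most 2 by any other pair, and 26 activated small intestinal cells carried a shared barcode.

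Intestinal fibroblasts make the matrix of the lamina propria and send signals to the epithelium and to immune cells. CXCL1 and CXCL2 draw neutrophils through the receptor CXCR2, epiregulin (Ereg) and amphiregulin (Areg) are ligands of the EGF receptor, and Tnfaip6 encodes TSG-6, a secreted hyaluronan-binding protein. Genes of this kind are induced quickly when stress or cytokines switch on the transcription factors NF-kB and AP-1, as are the immediate-early genes and the feedback inhibitors that shut the response off again.

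The 5 genes chose the cells, so their levels are a description. Cxcl1 stood at 3390 CPM (UMIs of the gene per 1000000 UMIs summed) in the summed activated cells of small intestine replicate 1 and at 2833 in those of replicate 2. Tnfaip6 stood at 1543 and 1365 CPM, and Cxcl2 at 1023 and 1656 CPM. Ereg stood at 475 and 730 CPM and Areg at 67.8 and 63.1 CPM. Cxcl1 was detected in 96.7% and 97.9% of activated cells and Tnfaip6 in 98.2% and 92.4%, against 77.4% and 71.4% for Ereg, 40.7% and 70.6% for Cxcl2 and 12.8% and 7.49% for Areg. Among the 5 genes, Cxcl1 and Tnfaip6 were thus detected most often and Areg least often, in shares that the rule itself helped to set. The most frequent combination in replicate 1 was Ereg, Cxcl1 and Tnfaip6, in 174 cells or 51.6% of the activated cells, whereas in replicate 2 it was Ereg, Cxcl1, Cxcl2 and Tnfaip6, in 1739 cells or 32.2%. All 5 genes were detected together in 10 and 124 cells.

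Levels just inside and just outside the threshold are a description, since the same genes set it. In replicate 1, the 260 activated cells with exactly 3 of the genes held 3128 CPM of Cxcl1, 395 of Ereg and 631 of Cxcl2, and the 415 cells with exactly 2 held 1868, 106 and 23.6 CPM. In replicate 2, the corresponding 3377 cells held 2498, 533 and 1077 CPM and the 3931 cells with 2 genes held 1686, 167 and 212 CPM. The exclusion genes were low in activated cells and higher in the reference, which had no such limit: Sox6 stood at 0 and 6.70 CPM in activated cells against 129 and 160 CPM in reference cells.

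The number of activation genes detected per cell, the value the rule used, is given as a description, and a gene without a UMI may still be expressed. With all UMIs counted, 13.5%, 26.1%, 33.6%, 21.0%, 5.06% and 0.818% of the Col1a2+ cells of small intestine replicate 1 had 0, 1, 2, 3, 4 and 5 of the genes. In replicate 2 these shares were 14.8%, 21.5%, 27.02%, 22.99%, 12.9% and 0.838%. With all UMIs these shares were highest at 2 genes, also in colon. At 2000 UMIs per cell they were highest at 1 gene in small intestine replicate 1 (29.5%) and at 0 genes in colon replicate 1 (41.9%), and at 2 genes in the libraries of replicate 2.

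**Figure D1:**
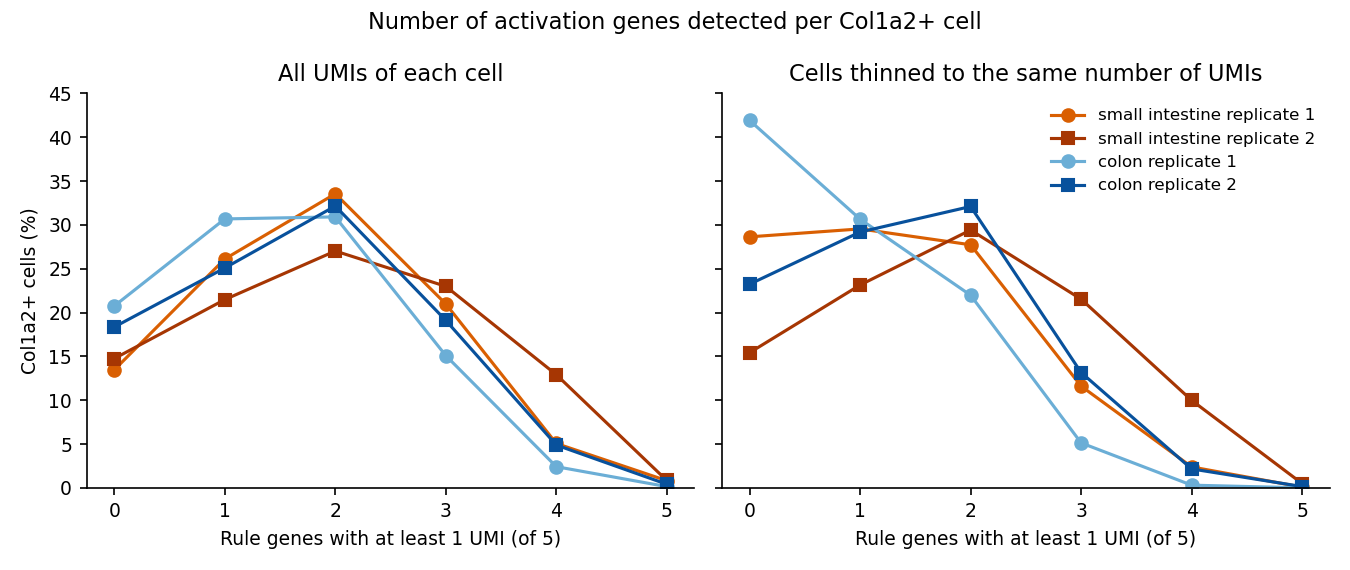
Share of Col1a2+ cells (vertical axis, %) by the number of the 5 activation genes with at least 1 UMI (horizontal axis), with 1 line per library, from all UMIs (left) and after thinning each cell to 2000 UMIs (right). With all UMIs each library peaks at 2 genes and falls without a second peak, and small intestine replicate 2 holds the largest shares at 3 and 4 genes in both panels.

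Activated cells made up 25.1% of the Col1a2+ cells in small intestine replicate 1 (337 of 1344, exact Clopper-Pearson 95% interval 22.8 to 27.5) and 35.7% in replicate 2 (5408 of 15157, 34.9 to 36.4). The same rule found 10.2% in colon replicate 1 (220 of 2154, 8.97 to 11.6) and 19.4% in colon replicate 2 (2429 of 12492, 18.8 to 20.1). Intervals cover counting error only. Both small intestinal shares lay above both colonic ones, but no test was made, since the smallest exact permutation p that 4 libraries allow is 0.33. The exclusion genes removed more cells in colon: 160 and 619 colonic cells with 3 or more of the 5 genes failed on the exclusion genes, against 24 and 161 small intestinal cells.

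The shares depended on depth. Median UMIs were 9558 and 3189 in activated cells against 5781 and 2239 in reference cells of the small intestine. When each cell was thinned to 2000 UMIs, leaving out shallower cells, the share was 14.1% (12.2 to 16.2) and 31.6% (30.8 to 32.5) in small intestine, from 26.03% and 39.9% in the same cells before thinning. In colon it was 4.62% (3.74 to 5.64) and 14.4% (13.7 to 15.1), from 10.4% and 20.6%. At equal depth small intestine replicate 1 and colon replicate 2 no longer differed beyond their intervals, so the order of the 2 intestines held within each replicate number but not across them.

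Cells that should lack the genes could be read for free RNA in replicate 1 only. In small intestine replicate 1, 56 plasma-marked cells without Col1a2, with a median of 27199.5 UMIs, had no UMI of Ereg, Areg, Cxcl1 or Tnfaip6, and Cxcl2 was found in 1.79% of them. Replicate 2, which held most of the activated cells, had 3 such cells, too few for a share. Among 254 endothelial-marked cells without Col1a2 in replicate 1, 31.9% had Cxcl1 and 15.7% had Cxcl2, but none had Ereg, Areg or Tnfaip6. Among smooth muscle-marked cells, 8 of 72 (11.1%) and 15 of 94 (15.96%) had 3 or more of the genes, and among pericyte-marked cells 0 of 27 and 4 of 11 (36.4%) did, beside 26.9% and 36.7% of all Col1a2+ cells; the differences were not tested. Median depths were 7059 and 2200.5 UMIs in the smooth muscle-marked cells and 8224 and 2795 in the Col1a2+ cells.

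Each of the 5 genes was also left out in turn and read in cells with at least 3 of the other 4, beside cells with none of those 4. Cxcl2 was 676 against 64.4 CPM in replicate 1 and 1504 against 60.8 CPM in replicate 2. Cxcl1 was 3700 against 808 CPM and 3199 against 589 CPM. Ereg was 402 against 95.5 CPM and 616 against 120 CPM. The 5 genes were picked as a set with these data in view, so these values too are a description. Tnfaip6 was 1891 against 583 CPM and 1332 against 329 CPM, and Areg was 58.0 against 13.5 CPM and 48.7 against 8.53 CPM. The colon libraries gave the same order in CPM for Cxcl1, Cxcl2, Ereg and Tnfaip6, although at 2000 UMIs per cell Ereg was detected in 12.5% of cells with the other genes and in 14.0% of those without them in colon replicate 1. In that library Areg was 23.6 CPM in the cells with the other genes and 41.4 CPM in those without.

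**Figure D2:**
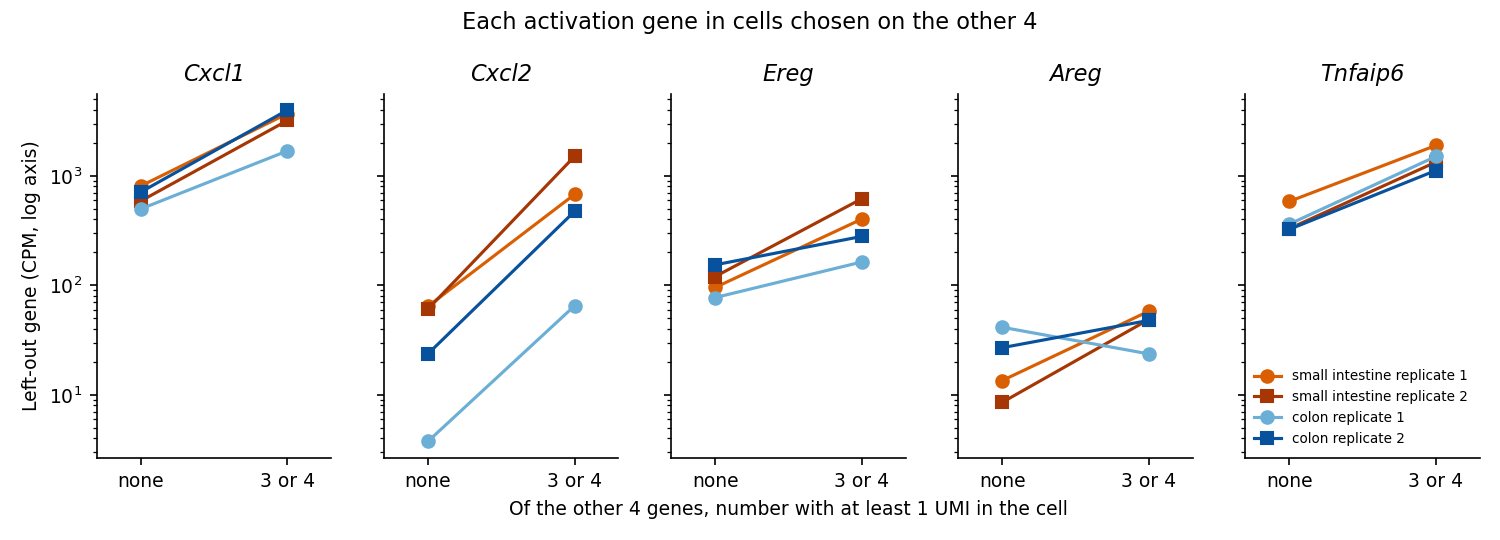
Level of each activation gene (CPM, log axis) in cells with none and with 3 or 4 of the other 4 genes, with 1 line per library. All lines rise from left to right except Areg in colon replicate 1, which goes from 41.4 to 23.6 CPM.

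The genes are neighbours in the genome. By the GENCODE vM21 annotation of GRCm38, Cxcl1 (chr5:90891241-90893115), Cxcl2 (chr5:90903871-90905938), Ereg (chr5:91074622-91093646) and Areg (chr5:91139599-91148432) all lie on the plus strand of chromosome 5, within a stretch of 644 kb from Cxcl5 to Btc that holds 12 protein-coding genes of the chemokine and EGF families and Mthfd2l. Tnfaip6 lies on chromosome 2. To show what sequence the co-detected genes share, the 250 bases before the RefSeq start of 4 of the 5 genes are printed from the RefSeq promoter table (GRCm38.p6), 5′ to 3′, with matches to the searched motifs in capitals. The motifs were an NF-kB motif (GGGA, any 4 bases, CC), an AP-1 motif (TGANTCA) and a cAMP response element (TGACGTCA), each on both strands; the NF-kB matches on the 2 strands overlap in Cxcl1 and in Cxcl2. Ereg had no entry.

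Cxcl1, chr5:90890995-90891244, plus strand: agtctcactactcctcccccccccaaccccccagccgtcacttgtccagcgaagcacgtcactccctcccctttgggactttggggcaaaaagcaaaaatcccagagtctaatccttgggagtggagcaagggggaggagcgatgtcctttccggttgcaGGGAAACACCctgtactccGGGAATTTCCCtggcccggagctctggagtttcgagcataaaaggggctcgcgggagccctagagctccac
Cxcl2, chr5:90903649-90903898, plus strand: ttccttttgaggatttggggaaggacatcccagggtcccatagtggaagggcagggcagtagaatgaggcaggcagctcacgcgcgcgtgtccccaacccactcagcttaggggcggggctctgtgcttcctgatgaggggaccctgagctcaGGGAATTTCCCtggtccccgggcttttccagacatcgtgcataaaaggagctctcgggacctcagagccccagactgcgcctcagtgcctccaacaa
Areg, chr5:91139349-91139598, plus strand: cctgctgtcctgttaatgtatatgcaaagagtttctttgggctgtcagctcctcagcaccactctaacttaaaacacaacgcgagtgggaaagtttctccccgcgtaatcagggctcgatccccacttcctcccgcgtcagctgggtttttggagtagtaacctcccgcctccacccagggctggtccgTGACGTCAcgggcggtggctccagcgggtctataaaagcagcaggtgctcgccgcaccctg
Tnfaip6, chr2:52037863-52038112, plus strand: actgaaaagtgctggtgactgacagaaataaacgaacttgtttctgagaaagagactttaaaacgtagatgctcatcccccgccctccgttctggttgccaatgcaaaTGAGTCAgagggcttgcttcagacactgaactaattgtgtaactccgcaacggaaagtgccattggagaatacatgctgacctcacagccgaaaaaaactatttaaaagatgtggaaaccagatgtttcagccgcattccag

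Both chemokine promoters held the NF-kB motif, Cxcl1 at 90 to 81 and at 71 to 62 bases before the start and Cxcl2 at 97 to 88 bases. Areg held the cAMP response element at 61 to 54 bases and Tnfaip6 the AP-1 motif at 142 to 136 bases. No motif of the 3 was common to all 4 promoters. Among all 32851 promoters of this length, 17.6% held the NF-kB motif, 6.75% the AP-1 motif and 1.55% the cAMP response element, so a match to the first is common.

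Beyond the genes of the rule, activated cells carried higher RNA of the immediate-early and NF-kB programs than reference cells. How many genes passed, higher or lower, depended on which reference was used, also in these programs. UMIs were summed per library and cell state and tested with edgeR's quasi-likelihood test with the library as a block, and genes passed whose log2 fold change exceeded 1 in size at an adjusted p (Benjamini-Hochberg) below 0.05. Genes used by the rule and mitochondrial genes were not tested. Of 11368 genes, 315 were higher (2.77%) and 260 lower (2.29%) in activated cells. The replicates are the 2 libraries, not the cells, and the p-values rest on how far the activated-reference difference varied between them. Without the library block no gene passed, although 864 had an unadjusted p under 0.05 in edgeR, and without small intestine replicate 1 the counts were 219 higher and 127 lower in a fit that took the spread from the colon libraries as well. With the reference limited to at most 1 exclusion gene, as the activated cells were, 262 genes were higher and 146 lower. The scale matters for the balance: the normalisation used (TMM) set the median log2 change of all genes to -0.0051, whereas scaling to the summed UMIs alone moved it to -0.27 and gave 218 higher and 550 lower genes, with Ccl2, Kcnj8, Abcc9, Tmem158, Bean1 and Bmp3 of the named genes no longer passing.

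Ccl2, a chemokine for monocytes, showed the greatest positive change among the named genes. The gene lies at chr11:82035571-82037453 (GRCm38). It stood at 1218 CPM in activated against 24.0 CPM in reference cells of replicate 1 and at 838 against 65.2 CPM in replicate 2, a log2 fold change of 4.65 ± 0.43 (SE, edgeR adjusted p = 0.0020). Cxcl10, a chemokine for T cells, stood at 1568 against 159 CPM and 1678 against 332 CPM (3.06 ± 0.27, edgeR adjusted p = 0.0017). In both genes each activated sum was above each reference sum, but Cxcl10 did not pass against reference cells with exactly 1 of the 5 genes, nor did Ccl2 without cells that held a UMI of another cell type. At 2000 UMIs per cell, Ccl2 was detected in 42.7% and 43.9% of activated and in 6.61% and 8.50% of reference cells. These are shares of cells with a UMI, and a cell without one may still carry the RNA. Has1, a hyaluronan synthase whose product TSG-6 binds, stood at 880 against 75.7 CPM and 475 against 66.4 CPM (3.42 ± 0.22, edgeR adjusted p = 0.00082). Ptgs2, the inducible cyclooxygenase of prostaglandin synthesis, stood at 325 against 36.0 CPM and 336 against 63.5 CPM (2.95 ± 0.22, edgeR adjusted p = 0.0012). The gap was wider than the spread between libraries in both genes, though Has1 did not pass with either library left out. Bdkrb1, the inducible bradykinin receptor, differed between the libraries in level, at 92.2 against 8.31 CPM in replicate 1 and 6.21 against 1.18 CPM in replicate 2 (3.40 ± 0.30). Gch1, the first enzyme of tetrahydrobiopterin synthesis, stood at 32.5 against 11.1 CPM and 18.8 against 1.96 CPM (2.77 ± 0.35). Tfpi2, a protease inhibitor, stood at 131 against 18.5 CPM and 81.4 against 16.3 CPM (2.75 ± 0.18). Itpkc, an inositol trisphosphate kinase, stood at 116 against 21.2 CPM and 146 against 25.5 CPM (2.75 ± 0.14). Within each library the activated sum was the higher one for all of these genes, while for Bdkrb1 the reference sum of replicate 1 exceeded the activated sum of replicate 2.

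**Figure D3:**
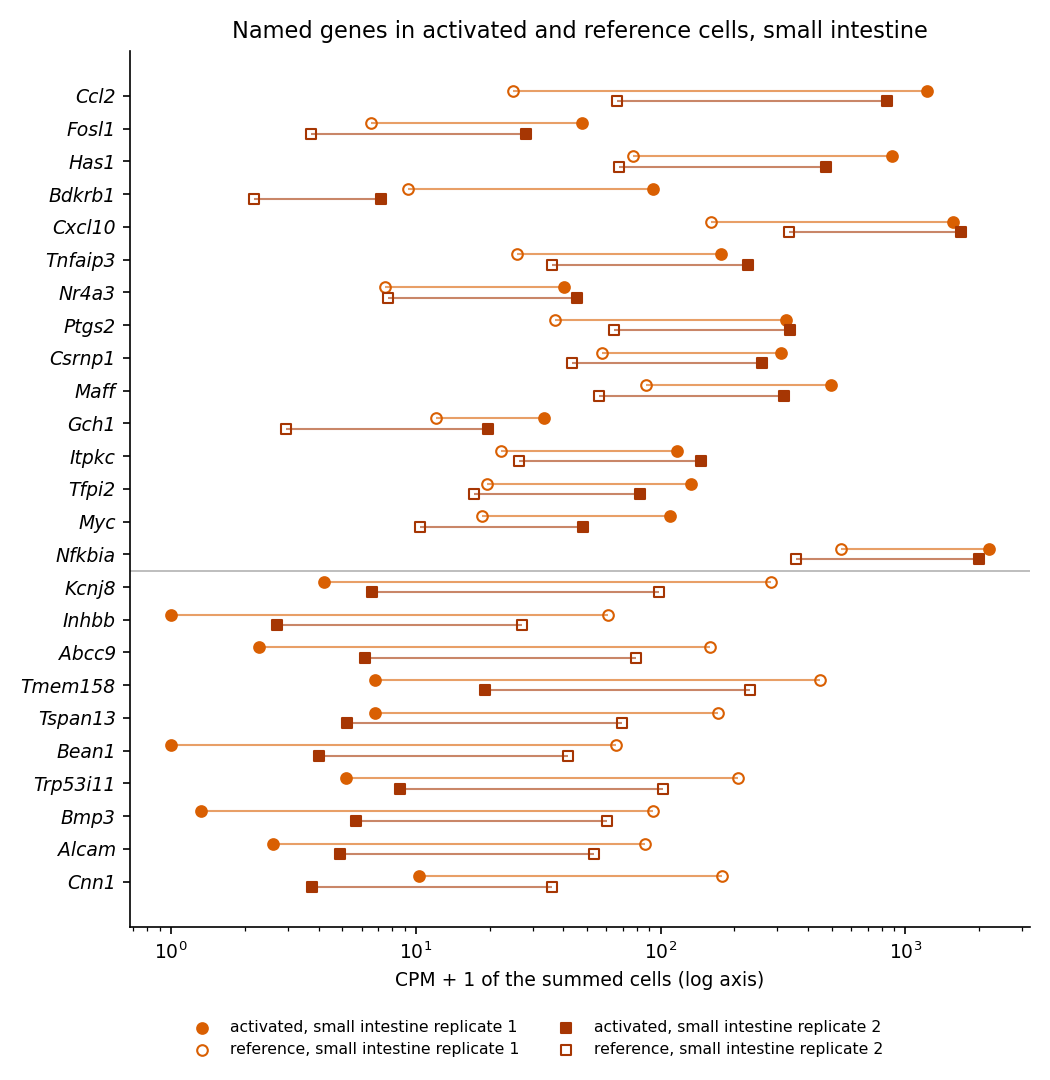
CPM + 1 (log axis) of the 25 named genes in activated cells (filled) and reference cells (open) of small intestine replicate 1 (circles) and replicate 2 (squares), with genes that were higher in activated cells above the line and genes that were lower below it. In each library every gene above the line has the filled symbol to the right, and every gene below it has the filled symbol to the left.

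The immediate-early and AP-1 list moved almost as a whole. Of 27 tested genes 25 were higher and none lower, with a median log2 change of 1.54 against -0.0051 for all genes tested. Fosl1, an AP-1 subunit, stood at 46.6 against 5.54 CPM and 27.3 against 2.74 CPM (log2 fold change 3.49 ± 0.23, edgeR adjusted p = 0.00082). Nr4a3, an orphan nuclear receptor, stood at 39.2 against 6.47 CPM and 44.6 against 6.66 CPM (2.95 ± 0.19). Maff, a small MAF transcription factor, stood at 494 against 85.9 CPM and 318 against 54.9 CPM (2.80 ± 0.14). Csrnp1, an immediate-early nuclear protein, stood at 308 against 56.3 CPM and 258 against 42.5 CPM (2.81 ± 0.14), and Myc, a growth-promoting transcription factor, at 108 against 17.6 CPM and 47.2 against 9.40 CPM (2.70 ± 0.18), though Myc did not pass against cells with exactly 1 of the 5 genes. The core AP-1 genes were abundant also in reference cells and rose less. Fos went from 2408 and 3646 CPM in reference cells to 5171 and 7222 CPM in activated cells (1.32 ± 0.15), and Junb from 2230 and 1563 CPM to 5882 and 4437 CPM (1.73 ± 0.14). Nr4a2 (0.84 ± 0.14) and Klf2 (0.57 ± 0.15) did not pass. All 28 measured genes of this list were higher in activated than in reference cells in each of the 4 libraries on the CPM scale, colon included. The corresponding share over all genes is not given here.

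NF-kB targets and regulators behaved alike, with 18 of 24 tested genes higher, none lower and a median of 1.67. With reference cells that had exactly 1 of the 5 genes, 7 of 23 were higher and the median was 0.72. Tnfaip3, which encodes the NF-kB inhibitor A20, stood at 175 against 24.9 CPM and 227 against 35.1 CPM (2.99 ± 0.15, edgeR adjusted p = 0.00043). Nfkbia, which encodes the inhibitor IκBα, stood at 2191 against 546 CPM and 2003 against 357 CPM (2.53 ± 0.16). Nfkbiz rose by 2.15 ± 0.13, Icam1, an adhesion molecule for leukocytes, by 2.02 ± 0.15 and Irf1 by 1.59 ± 0.14. The subunits Nfkb1, Rel and Rela passed at 1.74, 1.90 and 1.06, whereas Relb (0.47 ± 0.16) and Nfkb2 (0.89 ± 0.28) did not. Traf1 had a negative value of -1.36 ± 0.54 that did not pass.

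Feedback regulators, which limit signalling after induction, gave 13 higher of 25 tested and a median of 1.15. The list gave 1 higher of 25 and a median of 0.30 against cells with exactly 1 of the 5 genes. Trib1, a pseudokinase, stood at 256 against 97.9 CPM and 511 against 107 CPM (2.15 ± 0.20), and Dusp5, a phosphatase of ERK, at 29.2 against 12.9 CPM and 22.5 against 5.09 CPM (2.07 ± 0.25). Errfi1, which encodes an inhibitor of the EGF receptor, stood at 178 against 62.8 CPM and 163 against 55.2 CPM (1.81 ± 0.13). Zfp36, whose product speeds the decay of cytokine mRNAs, stood at 4417 against 1459 CPM and 1701 against 650 CPM (1.77 ± 0.16). The list was split, since the Sprouty genes Spry1, Spry2 and Spry4 had values of -0.39, -0.12 and -0.74 that did not pass, and Dusp6, a target of ERK signalling, stood at -0.98 ± 0.23. Socs1 and Socs3, inhibitors of cytokine signalling, rose by 1.55 ± 0.13 and 1.23 ± 0.16.

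**Figure D4:**
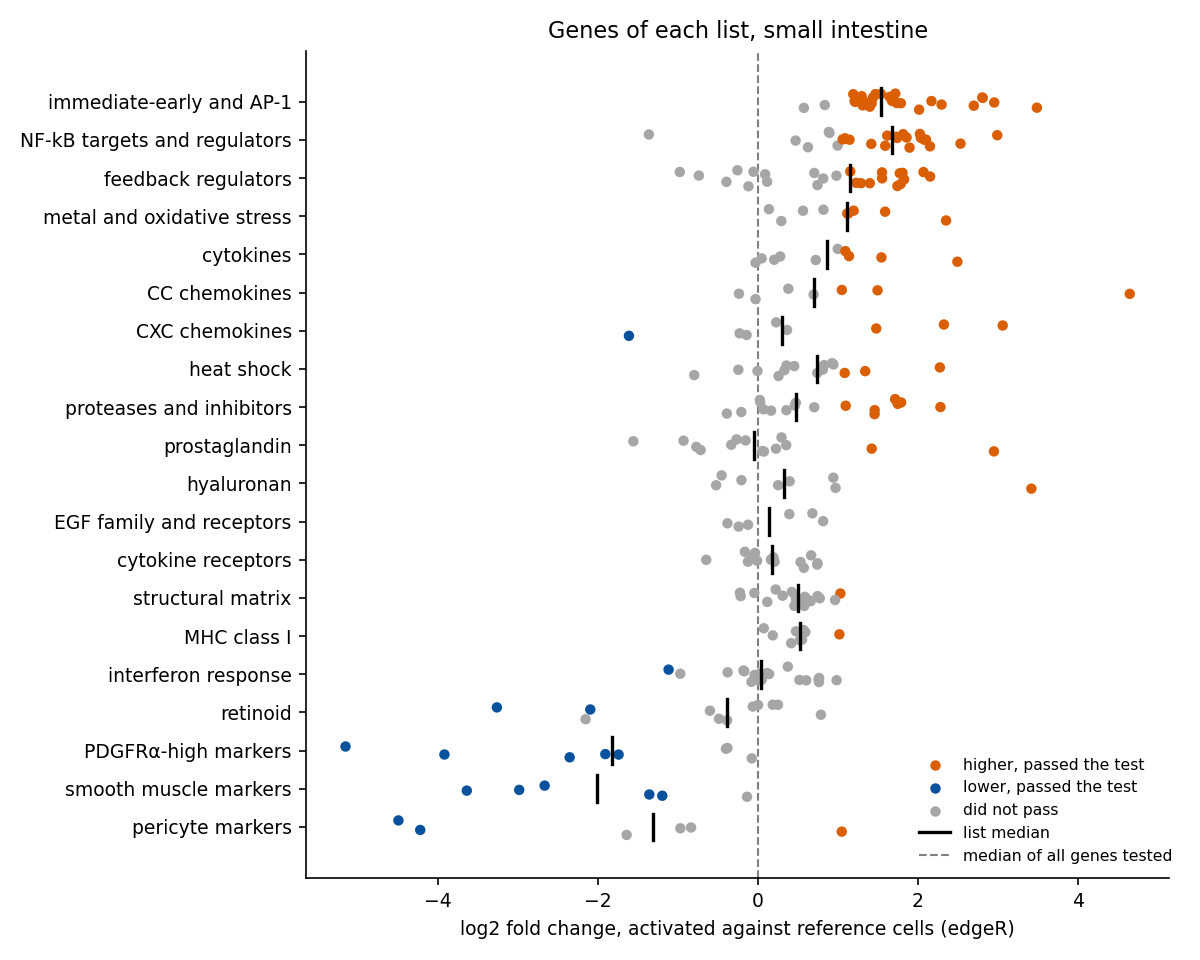
log2 fold change of activated against reference cells in small intestine (edgeR, horizontal axis) for each tested gene of 20 lists, coloured by the result of the test, with the list median as a black bar and the median of all genes as a dashed line. The immediate-early and NF-kB lists lie almost wholly to the right with medians of 1.54 and 1.67, and the smooth muscle list lies to the left with a median of -2.01.

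Secreted signals followed in part. Of 10 tested cytokines 4 were higher (median 0.86): Il6 stood at 405 against 65.6 CPM and 294 against 77.0 CPM (2.49 ± 0.21, edgeR adjusted p = 0.0013), and Il1b, Tslp and Il33, alarm signals to immune cells, passed at 1.54, 1.14 and 1.09. Among CC chemokines and their decoy receptors 3 of 7 passed, Ccl2, Ccl7 (1.495 ± 0.20) and the scavenger receptor Ackr3 (1.05 ± 0.13), with a list median of 0.70. The eosinophil chemokine Ccl11 was abundant in both states, at 1259 against 1232 CPM and 924 against 823 CPM, and did not pass (0.38 ± 0.13). Of 8 tested CXC chemokines outside the rule, Cxcl10, Cxcl5 and Cxcl9 were higher and Cxcl14 was lower, with a list median of 0.30. Cxcl14, a marker of Fgfr2+ fibroblasts in the study, stood at 54.0 against 329 CPM and 67.9 against 169 CPM (-1.61 ± 0.26, edgeR adjusted p = 0.014). Cxcl12, a chemokine of stromal niches, stood at 1023 against 1608 CPM and 752 against 973 CPM and did not pass (-0.23 ± 0.14). None of 14 tested cytokine receptors passed, and the largest value was 0.75 ± 0.22 for Il17ra. Over all genes 2.77% were higher and 2.29% lower, so lists of this size hold few calls or none.

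In the chromosome 5 stretch, RNA of the other genes did not follow as a block. Cxcl5, at its left end, stood at 70.0 against 12.0 CPM and 98.8 against 25.9 CPM (2.32 ± 0.19, edgeR adjusted p = 0.0013). Mthfd2l, a mitochondrial folate enzyme gene between Cxcl2 and Ereg, stood at 42.4 against 52.7 CPM and 31.2 against 38.8 CPM (-0.05 ± 0.14). Btc, which encodes the EGF receptor ligand betacellulin next to Areg, stood at 18.0 against 26.8 CPM and 16.9 against 20.8 CPM (-0.12 ± 0.18), and Pf4 had a value of -0.14 ± 0.28. Mthfd2l, Btc and Pf4 did not pass, and Ppbp, Cxcl3, Cxcl15 and Epgn were too low to test. Outside the rule, no gene of the EGF family list passed among 6 tested (median 0.13), the receptor gene Egfr included (0.39 ± 0.14). With 2.77% higher and 2.29% lower over all genes, a list of 6 holds few calls or none. Hbegf, a further EGF receptor ligand, stood at 12.2 against 16.6 CPM and 17.0 against 8.62 CPM.

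Enzymes of the matrix and of prostaglandin synthesis moved singly. Of 17 tested proteases and inhibitors 7 were higher (median 0.47), among them the versican-cleaving protease Adamts4 at 342 against 150 CPM and 416 against 121 CPM (1.79 ± 0.16) and the metalloproteinase inhibitor Timp1 (1.46 ± 0.20). A single gene of 18 in this list was higher against cells with exactly 1 of the 5 genes. In the prostaglandin list 2 of 14 passed, Ptgs2 and the receptor gene Ptger4 (1.42 ± 0.15), with a median of -0.05, and the prostacyclin synthase Ptgis stood at -0.93 ± 0.14. In the hyaluronan list Has1 was the single gene of 8 that passed (median 0.32); Has2 stood at 16.7 against 19.4 CPM and 29.2 against 27.8 CPM (0.25 ± 0.16). Structural matrix genes gave 1 of 20, Col15a1 (1.03 ± 0.20), with a median of 0.50 that was 0.22 with scaling to summed UMIs. None of the 20 passed with that scaling, with the reference limited to at most 1 exclusion gene or in thinned cells. Col1a1 stood at 4075 against 2649 CPM and 2856 against 2902 CPM (0.58 ± 0.20) and did not pass, and activated sums thus held collagen RNA at a level like that of the reference sums in replicate 2 and above it in replicate 1.

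Some stress genes were higher. Of 9 tested genes of metal and oxidative stress 5 passed (median 1.12): the metallothionein Mt1 stood at 5151 against 1067 CPM and 1245 against 340 CPM (2.35 ± 0.18, edgeR adjusted p = 0.0012), Mt2 passed at 1.59 and the haem-degrading Hmox1 at 1.13; against cells with exactly 1 of the 5 genes, 0 of 9 passed. Heat shock genes gave 3 of 15 (median 0.74), led by the chaperone Dnajb1 at 929 against 259 CPM and 724 against 165 CPM (2.27 ± 0.14), while Hspa1a stood at 1446 against 1056 CPM and 760 against 550 CPM and did not pass (0.74 ± 0.13). No heat shock gene passed without smooth muscle and pericyte marked cells or against cells with exactly 1 gene. In the hypoxia and glycolysis list 4 of 14 passed (median 0.24), among them Egln3 (1.99 ± 0.27) and Hk2 (1.08 ± 0.14), whereas Vegfa had 0.18 ± 0.15. Of 20 interferon response genes none was higher, beside 2.77% over all genes, and the list median was 0.03. Ifit1 of this list was lower, at 10.9 against 38.8 CPM and 16.4 against 37.6 CPM (-1.12 ± 0.18). Of 10 acute phase and complement genes Cp was higher (1.06 ± 0.18) and C7 lower (-1.27 ± 0.18), with a median of 0.78, and of 9 MHC class I genes H2-Q4 passed (1.018 ± 0.13), with a median of 0.52. No gene of either list passed with the reference limited to at most 1 exclusion gene. The median share of mitochondrial UMIs was 2.35% and 2.78% in activated against 3.35% and 3.42% in reference cells.

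Among the named lower genes were genes known from pericytes, PDGFRα-high fibroblasts and smooth muscle. Kcnj8 and Abcc9, subunits of a potassium channel of pericytes and some fibroblasts, stood at 3.21 against 281 CPM and 5.60 against 97.8 CPM (-4.49 ± 0.37) and at 1.29 against 158 CPM and 5.22 against 78.6 CPM (-4.22 ± 0.39). Bmp3, a bone morphogenetic protein made by PDGFRα-high fibroblasts, stood at 0.32 against 92.4 CPM and 4.67 against 59.2 CPM (-3.92 ± 0.43, edgeR adjusted p = 0.0033). Inhbb, which encodes an activin subunit, stood at 0 against 60.0 CPM and 1.70 against 26.1 CPM (-4.28 ± 0.50), and Bean1 at 0 against 64.7 CPM and 3.02 against 40.7 CPM (-4.01 ± 0.48). These genes were nearly absent from activated cells of replicate 1 and low in those of replicate 2. Tmem158 stood at 5.78 against 447 CPM and 18.1 against 231 CPM (-4.21 ± 0.45), Tspan13 at 5.78 against 171 CPM and 4.23 against 68.4 CPM (-4.03 ± 0.20), Trp53i11 at 4.18 against 205 CPM and 7.58 against 101 CPM (-3.98 ± 0.32) and Alcam, an adhesion molecule, at 1.61 against 85.0 CPM and 3.90 against 52.3 CPM (-3.87 ± 0.30). Cnn1, a contractile protein of smooth muscle, stood at 9.32 against 176 CPM and 2.75 against 34.9 CPM (-3.64 ± 0.18).

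The reference sums held more RNA of other cell types, which moved with these results. The 6 smooth muscle markers summed to 177 and 116 CPM in activated against 1408 and 415 CPM in reference cells, and 5 of them were lower, with a median of -2.01. Of 8 PDGFRα-high markers 5 were lower and none higher (median -1.83), but the rule removed cells with PDGFRα-high genes from the activated group alone, and the study chose these markers on these samples. With the reference limited to at most 1 exclusion gene, 2 of 7 PDGFRα-high markers were lower (median -0.50), 1 of 6 smooth muscle markers (median -2.26) and 1 of 13 genes of the contractile and TGF-beta list (median -0.53). Of 6 tested pericyte markers Abcc9 and Kcnj8 were lower and Rgs5 higher, at 927 against 407 CPM and 678 against 521 CPM (1.05 ± 0.23). No pericyte marker was higher with the limited reference, with scaling to summed UMIs, in thinned cells or against cells with exactly 1 of the 5 genes. The contractile and TGF-beta list gave 5 lower and 2 higher of 13 (median -0.54), the lower ones including Tagln (-3.26 ± 0.23) and Acta2 (-2.67 ± 0.28) and the higher ones being Thbs1, which encodes a matricellular protein, at 1.80 ± 0.13 and Tgfb2 at 1.33 ± 0.20. Of 11 retinoid genes Rbp4 (-3.26 ± 0.21) and Aldh1a1 (-2.10 ± 0.27) were lower and none higher, with a median of -0.39. Endothelial markers were too low to test, at 5.14 and 3.02 CPM for the 7 summed in activated cells against 129 and 3.53 CPM in reference cells. The 8 epithelial markers summed to 4.50 and 3.52 CPM in activated against 12.9 and 5.49 CPM in reference cells, with Cdh1 at 0 in all of them.

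Cells carrying a UMI of Myh11, Actg2, Des, Rgs5, Notch3 or Cspg4, markers of smooth muscle or pericytes, were then left out of both states. The reference was also limited to at most 1 exclusion gene. Rgs5 alone was found in 650 of 1215 and 6546 of 11825 small intestinal Col1a2+ cells at 2000 UMIs per cell. In colon it was found in 174 of 1970 and 583 of 11020. The filter thus left out many small intestinal cells with collagen RNA, and which of them were pericytes was not tested. In small intestine 34 and 1115 activated and 24 and 604 reference cells remained, and 155 genes were higher and 36 lower. Among those, 137 and 26 genes were in the first set of calls. The immediate-early list gave 21 higher of 27 and a median of 1.25, and the NF-kB list 14 of 22 and 1.35. The smooth muscle list had 2 tested genes and no call. Ccl2 then stood at 4.02, Fosl1 at 3.96 and Has1 at 2.67, and 14 of the 15 named higher genes passed, Gch1 being the exception. Fewer cells and a changed reference entered this fit, and which of them lowered the counts was not tested. With reference cells that had exactly 1 of the 5 genes, 41 genes were higher and 48 lower, and the immediate-early list gave 5 of 27 with a median of 0.62.

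Plasma cell transcripts also moved with the activated cells. Igkc stood at 12.2 against 11.1 CPM in replicate 1 and at 221 against 35.8 CPM in replicate 2, and Igha at 14.5 against 4.62 CPM and 63.3 against 12.9 CPM. All 3 tested plasma markers passed (median 2.45), and Mzb1, which plasma cells make in quantity, stood at 0.32 against 1.85 CPM and 0.60 against 0.98 CPM. When the rule was applied to a random part of each cell's UMIs and the genes were read from the rest, none of the 3 passed (median 0.79). Of 4 tested immune markers none passed. In replicate 2, 7.14% of the activated and 1.03% of the reference cells were among the cells with the highest doublet scores, and without them 327 genes were higher and 272 lower. In replicate 1 the scores marked 0 activated cells and 1 reference cell.

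Summed levels of the immediate-early and NF-kB lists were higher with each further activation gene up to 4, in cells with at most 1 exclusion gene thinned to 2000 UMIs. The immediate-early genes summed to 17276, 28639, 34906, 37699 and 40379 CPM in cells of replicate 1 with 0, 1, 2, 3 and 4 of the genes. In replicate 2 they summed to 21733, 33541, 41497, 44305 and 46700 CPM. The steepest step in both libraries was from 0 to 1 gene, and the next steps were smaller. NF-kB genes summed to 2291, 4377, 5671, 6762 and 8707 CPM in replicate 1 and to 2079, 3581, 5049, 6261 and 7295 CPM in replicate 2, a more even climb. Structural matrix genes had no such order, at 37646, 41940, 45793, 42138 and 40741 CPM and 53972, 53576, 53297, 49903 and 46628 CPM, and smooth muscle markers stood at 1192 CPM with 0 genes and 155 CPM with 4 in replicate 1 and at 297 and 124 CPM in replicate 2. The group with 4 genes held 29 cells in replicate 1 and 1173 in replicate 2.

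**Figure D5:**
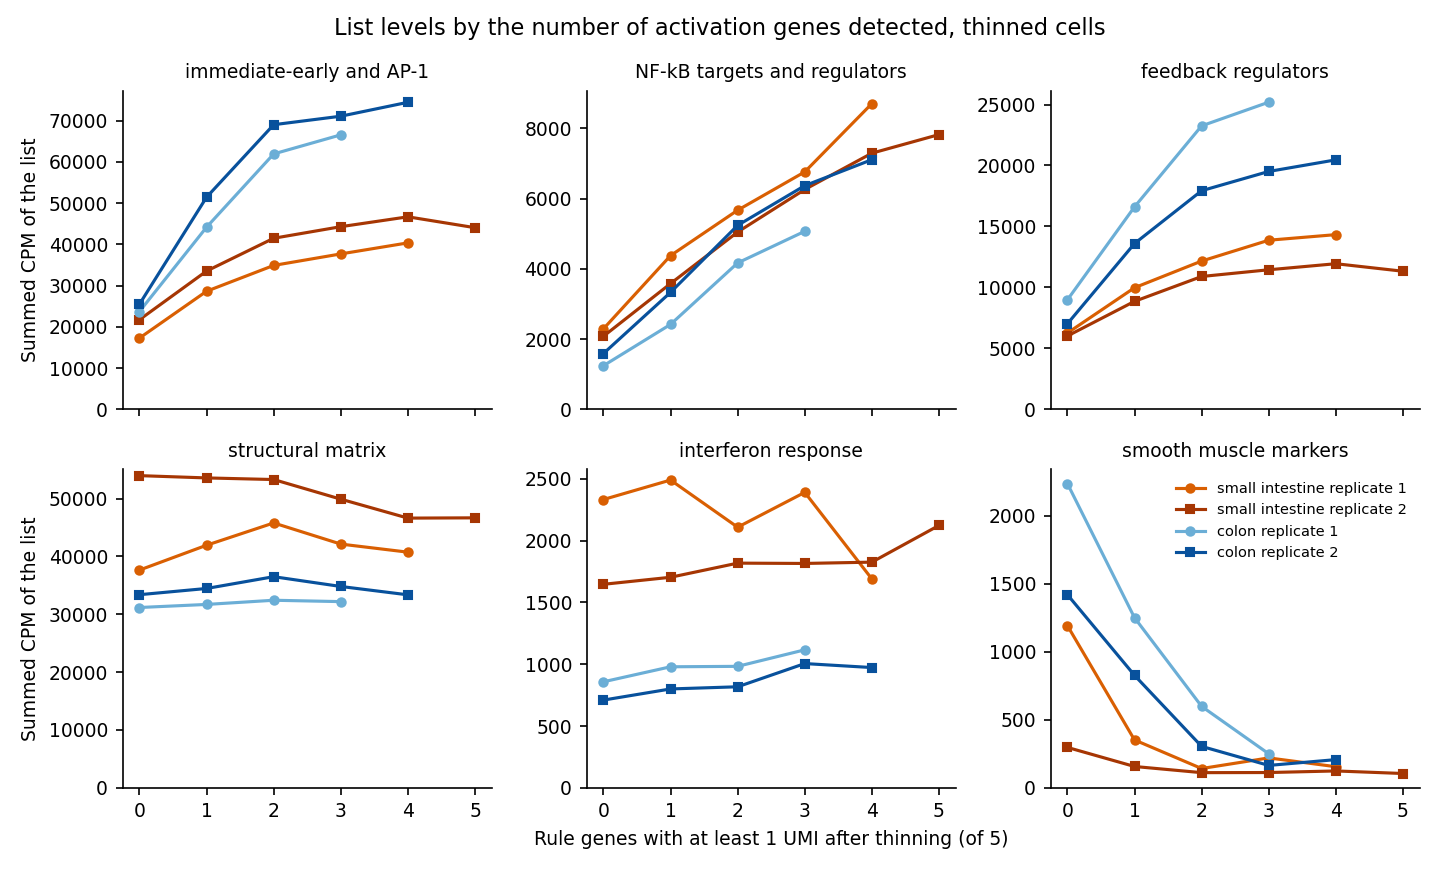
Summed CPM of 6 lists (vertical axes, each from 0) by the number of the 5 activation genes detected in cells thinned to 2000 UMIs (horizontal axis), with 1 line per library and groups under 20 cells left out. In each library the immediate-early and NF-kB lists are lowest at 0 genes, and the smooth muscle markers are highest there.

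Cells with 3 or more of the genes were found among cells with UMIs of each of 16 subset markers in replicate 2 and of 15 in replicate 1. At 2000 UMIs per cell in replicate 2, 41.3% of Fgfr2+ cells (879 of 2127, 39.2 to 43.5) and 39.4% of Igfbp5+ cells (38.0 to 40.8) had 3 or more of the genes, against 13.9% of Cd81+ cells (12.2 to 15.8) and 12.0% of Sox6+ cells (9.61 to 14.7). In replicate 1 the shares were 17.3% of Fgfr2+ cells (12.3 to 23.4), 16.7% of Igfbp5+ cells (13.2 to 20.7) and 8.47% of Cd81+ cells (4.82 to 13.6), and 0 of 83 Sox6+ cells, which allows up to 4.35% (exact upper bound). Over the 16 markers the order differed between the libraries: in replicate 1 the highest shares were those of Pi16+ cells (25.5%, 14.3 to 39.6) and Shisa2+ cells (19.1%, 9.15 to 33.3), with 22.9% and 32.1% in replicate 2, where Fgfr2+ cells had the highest. Pdgfra+ cells had 11.2% and 27.0%, and Dkk2+ cells 14.5% and 29.5%. Sox6 is an exclusion gene, so its share reads cells before that limit was applied. Rgs5, a pericyte marker, was found in 6546 cells of replicate 2 at this depth, of which 34.6% had 3 or more genes.

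The 5′ sequence of the changed genes was read the same way as that of the rule genes. Of 311 promoters of genes that were higher in activated cells, 25.4% held the NF-kB motif, 7.07% the AP-1 motif and 4.50% the cAMP response element. Of 248 promoters of genes that were lower, 27.0%, 8.87% and 0.806% held them. Among all promoters 17.6%, 6.75% and 1.55% held them, so the share with the NF-kB motif lay above that of all promoters for the higher and the lower genes alike. These are counts of letters in a window and were not tested.

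Between the intestines, few genes passed between activated cells in the fit without a block, among them Lrat, Cyp1b1 and several Hox genes. The same rule gave 2649 activated and 2740 reference cells in colon. Of 12037 genes tested between activated cells of the 2 intestines without a block, 20 were higher (0.166%) and 25 lower (0.208%) in small intestine. With same-numbered libraries as a block these counts were 310 and 344, and in DESeq2 they were 143 and 170. Lrat, the enzyme that esterifies retinol, stood at 238 and 300 CPM in small intestinal and at 0 and 0.69 CPM in colonic activated cells (log2 fold change 8.96 ± 0.64, edgeR adjusted p = 0.044). Cyp1b1, an enzyme of retinoid and steroid oxidation, stood at 59.1 and 29.1 CPM against 0 and 0.086 CPM (9.03 ± 0.80). Vwc2, a secreted BMP antagonist, stood at 38.9 and 27.1 CPM against 0 UMIs in both colon libraries. Of 11 tested genes of the retinoid list Lrat and Cyp1b1 were higher and Rbp4 lower. Reference cells held 242 and 333 CPM of Lrat in small intestine against 0.89 and 0.55 CPM in colon, and 0 UMIs of Hoxa10 against 107 and 88.2 CPM.

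Hoxc4 and Hoxc8 were higher in small intestinal activated cells, at 23.8 and 22.1 against 0 and 0.43 CPM and at 38.6 and 34.6 against 1.31 and 0.52 CPM. Hoxa10 and Hoxa11, homeobox genes of posterior position, had 0 UMIs in both small intestinal sums and stood at 75.3 and 40.2 CPM and at 34.4 and 23.6 CPM in colon. These homeobox genes were named because they passed and differed the same way in both same-numbered pairs, so their lack of overlap is a description. Isl1, a further homeobox gene, stood at 0 and 0.22 against 44.4 and 57.8 CPM (-8.00 ± 0.57), Stmn2, a microtubule regulator best known from neurons, at 0.64 and 0.11 against 80.1 and 198 CPM (-9.29 ± 0.96), and Cdh13, a cadherin, at 0.96 and 0.71 against 43.6 and 33.5 CPM (-5.54 ± 0.36). The activation lists gave no call, beside shares of 0.166% and 0.208% over all genes at which lists of this size hold few or none: 0 of 28 immediate-early genes (median -0.33), 0 of 23 NF-kB genes (median 0.30) and 0 of 10 cytokines (median -0.02). A value that does not pass in this design does not show that the levels were equal. Single libraries moved these counts: without colon replicate 2 they were 1 higher and 6 lower, without colon replicate 1 they were 46 and 79, without small intestine replicate 1 they were 53 and 58, and without small intestine replicate 2 they were 26 and 16.

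Few genes passed for a different change with activation in the 2 intestines. Of 12166 genes tested for a different activated-minus-reference change, 3 (0.0247%) changed more upward in small intestine and 8 (0.0658%) more downward. No gene of the immediate-early, NF-kB or cytokine lists was among them, but at these shares lists of this size hold few or none. In small intestine Ccl8, a monocyte chemokine, stood at 30.5 against 24.9 CPM and 32.8 against 23.1 CPM, and at 211 against 51.8 CPM and 148 against 30.1 CPM in colon (difference -1.75 ± 0.20, edgeR adjusted p = 0.016). Serpina3g, a protease inhibitor, was above the reference in both intestines, at 113 against 60.0 CPM and 78.1 against 30.0 CPM in small intestine and 113 against 15.5 CPM and 109 against 8.82 CPM in colon (-2.10 ± 0.27). Ifit1 went opposite ways, being lower in small intestinal activated cells and at 25.7 against 10.4 CPM and 21.4 against 12.5 CPM in colon (-2.35 ± 0.28). Procr, the protein C receptor gene, stood in small intestine at 191 against 149 CPM and 101 against 80.3 CPM, compared with 160 against 567 CPM and 121 against 449 CPM in colon (2.21 ± 0.17, edgeR adjusted p = 0.0013). That difference was 0.68 when the reference was limited to at most 1 exclusion gene and 0.47 without smooth muscle and pericyte marked cells, and it passed in neither. No gene passed without colon replicate 2 (734 had an unadjusted p under 0.05 in edgeR), while 1 higher and 1 lower passed when small intestine replicate 1 was left out, 2 and 2 when colon replicate 1 was, and 8 and 47 when small intestine replicate 2 was.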

How the data were processed

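RNA of sorted stromal cells was counted in 2 small intestinal and 2 colonic 10x libraries. The authors made the deposited UMI counts with Cell Ranger, version 3.0.2 for replicate 1 and 3.1.0 for replicate 2 per the file headers; the counts were not normalised. The submitters' processing notes name the build mm10, and 28339 of 28692 gene IDs matched GENCODE vM21. Cells were filtered and chosen as stated above, with Python 3.11.15 and scanpy 1.11.5, and raw UMIs were summed per library and cell state. The members and gene lists were chosen with earlier results of these data known. Genes with too few UMIs were removed with edgeR's filterByExpr, and edgeR 4.0.16 (R 4.3.3) fitted quasi-likelihood models with TMM scaling, tested first on simulated data. The library was a block wherever activated and reference cells of 1 library were compared, since both come from the same mice. Doublets were scored with Scrublet; its automatic threshold marked 0.00655% of small intestine replicate 2, where the 5% of cells with the highest scores were used instead, and doublets were left out only as an alternative. Named were the 15 higher and 10 lower genes with the largest change between states, and up to 5 in each direction otherwise, among those that passed in the same direction in both libraries with at least 50 UMIs per library in whichever group was higher; genes of the lists were named as examples. DESeq2 1.42.0, other scaling, filters and cell choices were tried as alternatives. Libraries differed in depth, and 2 per group limit the precision.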

Additional observations from a re-analysis of the deposited data

Results flagged for a closer look

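A total of 8 genes named in the test of whether the change from reference to activated cells differed between small intestine and colon stood out by that test (edgeR interaction term, Benjamini-Hochberg adjustment, 2 libraries per intestine). For each, the values are the small intestine change minus the colon change on the log2 scale. Procr had 2.21 (edgeR adjusted p = 0.0013), from 0.36 and 0.33 in the small intestinal libraries and -1.82 and -1.88 in the colonic ones on the log2(CPM + 1) scale. Ccdc3 had 1.52 (edgeR adjusted p = 0.016), from 0.14 and -0.01 against -1.52 and -1.40, and Cpxm2 had 1.25 (edgeR adjusted p = 0.045), from 0.32 and 0.13 against -0.97 and -1.09. Cd36, a fatty acid transporter gene, had -6.24 (edgeR adjusted p = 0.036), but activated small intestinal cells held 1 UMI of it in all. Ifit1 had -2.35 (edgeR adjusted p = 0.016), from -1.74 and -1.15 against 1.23 and 0.73, the opposite direction in every library. Serpina3g had -2.10 (edgeR adjusted p = 0.028), from 0.90 and 1.35 against 2.79 and 3.49. Hs3st1, a heparan sulphate sulphotransferase gene, had -1.94 (edgeR adjusted p = 0.027), from -0.35 and 0.06 against 2.17 and 1.46, and Ccl8 had -1.75 (edgeR adjusted p = 0.016), from 0.28 and 0.48 against 2.01 and 2.26. With the reference limited to at most 1 exclusion gene, Procr, Ccdc3 and Cpxm2 had 0.68, 0.26 and 1.04 and none of them passed. With smooth muscle and pericyte marked cells left out, Ccdc3 reversed to -0.092 and Ifit1 still passed. Procr, Cpxm2, Cd36, Serpina3g, Hs3st1 and Ccl8 had 0.47, 0.11, -6.33, -1.58, -1.09 and -1.30 and did not pass. That filter, which counts Rgs5, cut the small intestinal cells harder than the colonic ones.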

How the results depend on the processing

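The counts of genes between activated and reference cells of the small intestine (315 higher, 260 lower) moved by over 1.5 times as follows: 0 and 0 without the library block, 155 and 36 without smooth muscle and pericyte marked cells, and 41 and 48 against reference cells with exactly 1 gene. The lower genes alone were 146 with a reference limited to at most 1 exclusion gene and 550 with scaling to summed UMIs, and the higher genes were 144 with a log2 fold beyond 1.5 and 530 with no fold limit. Leaving out 1 library gave 219 to 353 higher and 127 to 298 lower genes, in fits where the lone small intestinal library was assumed to vary like the colon ones. In 340 of the values tried for the named genes the direction and the call held, and in 53 the call was lost.

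Between activated cells of the 2 intestines (20 and 25), counts were 153 and 168 without the low-count filter, 143 and 170 in DESeq2, 55 and 63 in cells thinned to 2000 UMIs, 7 and 13 with at least 4 of the 5 genes, and 1 to 53 and 6 to 79 with 1 library left out. The replicate block gave 310 and 344; same-numbered libraries deviated together (r = 0.676 across 12060 genes), but there are only 2 pairs and the labels tie no number to a shared batch.

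For the difference between the intestines (3 and 8), counts were 0 and 0 without the replicate block (180 genes at an unadjusted p under 0.05 in edgeR), 53 and 124 without the filter, 9 and 25 in DESeq2, 5 and 25 with the limited reference, 26 and 64 in thinned cells, 5 and 17 without cells holding a UMI of another cell type, 5 and 13 with at least 4 genes, and 5 and 16 with scaling to summed UMIs. The lower count was 19 with the rule on a separate part of the UMIs and 27 without smooth muscle and pericyte marked cells, where Ccdc3 reversed to -0.092. With 1 library left out, 0 to 8 and 0 to 47 passed. The causes of these changes were not tested.

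Shares of activated cells, given for the small intestinal libraries (replicates 1 and 2) and then the colonic ones, were 14.1%, 31.6%, 4.62% and 14.4% in thinned cells, 55.95%, 61.6%, 30.9% and 45.5% with at least 2 genes, and 5.73%, 13.4%, 1.21% and 3.99% with at least 4. With all filtered cells as denominator small intestine replicate 1 had 18.4%. In small intestine replicate 2 and colon replicate 2 the deeper cells before thinning gave 39.9% and 20.6%, at least 1000 genes 38.5% and 20.4%, and at most 5% mitochondrial UMIs 36.8% and 20.2%. Alternatives without smooth muscle and pericyte cells, with a reference of exactly 1 gene, with scaling to summed UMIs or without barcodes shared by libraries, and the doublet threshold of small intestine replicate 2, were chosen after seeing the data. With 2 libraries per group and unequal depth, rare genes and small differences could not be detected.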
